A study of Mus musculus with 20 samples.

Results

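The effect of olaparib on top of immune checkpoint blockade was followed in 6 of the 20 RNA-seq libraries of a mouse ovarian cancer study, across all 18144 genes that passed the filter on low counts. The libraries were taken by treatment group, and they and the gene lists were chosen with earlier results of these data known. A set of 3 came from tumours of mice given antibodies against CTLA-4 (100 µg) and PD-L1 (200 µg) by intraperitoneal injection, called ICB below. The other 3 came from mice given the same antibodies and oral olaparib at 40 mg/kg per day, called PARPi+ICB. Tumours grew from ID8 cells, a mouse ovarian surface epithelial line that here lacked Trp53 and Brca1 (ID8 Trp53-/-Brca1-/-) and carried luciferase, injected into the peritoneal cavity of C57/BL6 female mice whose age is not given. Both groups share the tumour genotype, so the deletions and the antibodies are constant across the comparison and olaparib is the difference. To set the effect beside that of olaparib alone, 3 libraries of untreated mice (control) and 3 of mice given olaparib only (PARPi) were used. The remaining 8 libraries, from groups that also received an antibody against VEGFA (20 µg), enter only the estimate of the spread between animals. The sample titles name 1 mouse per library, and p-values measure the spread between these mice.

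Olaparib blocks PARP1 and PARP2, enzymes that mark DNA strand breaks for repair, and traps them on DNA. Cells without BRCA1 cannot repair the resulting damage faithfully by homologous recombination, and unrepaired DNA that reaches the cytosol can be sensed through cGAS and STING, which switches on type I interferon genes. CTLA-4 and PD-L1 restrain T cells, in priming and in the tumour respectively, and antibodies against them lift that restraint. Tumours of this model grow in the peritoneal cavity, where large resident macrophages, B cells and mast cells are normal inhabitants. The tissue was sequenced in bulk, so in all results below a change in the number of cells of a type and a change in RNA per cell cannot be told apart.

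The 6 libraries held 30.2 to 34.7 M counted reads. In all of them Wt1, a transcription factor of mesothelium and ovarian surface epithelium, stood at 862 to 1061 CPM, which is the read count scaled to the effective size of the library. Its RNA can come from the tumour cells or from host mesothelium, which cannot be told apart here. A set of 3 libraries stood apart in ways that touch results below. ICB replicate 3 held RNA of pancreatic acinar cells, with a mean log2 CPM of 3.39 over 12 acinar genes against at most -1.43 in the other 5 and a summed level of 225 CPM against 14.8 to 23.7 CPM, and more RNA of peritoneal macrophages and neutrophils than the other ICB libraries. PARPi+ICB replicate 2 held high levels of heat shock and immediate early genes. PARPi+ICB replicate 3 had the highest mean log2 CPM of the B cell, T cell and 3 macrophage lists and the lowest of the type I interferon list in its group. Their part in the results was not tested beyond leaving each out.

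Adding olaparib to ICB changed 158 genes, which is 0.871% of those tested, at an adjusted p under 0.05 (edgeR quasi-likelihood test, Benjamini-Hochberg adjustment, which holds for each adjusted p below unless another test is named). Of these, 96 were higher (0.529%) and 62 lower (0.342%). The higher genes had a median log2 change of 0.95 and 44 of them passed 2-fold. The lower genes had a median of -0.50 and 6 passed 2-fold, so the decreases were smaller. Among the called genes, 147 were protein coding. All 3 PARPi+ICB libraries lay above all ICB libraries for 95 of the 96 higher genes and below them for 62 of the 62 lower ones. Over all genes tested, 10.1% and 10.8% showed such a separation. The genes were called on these same libraries, so their separation follows largely from the call and is no further support for it. At an unadjusted p under 0.05, 1613 genes were higher (8.89%) and 1359 lower (7.49%). Counts of list members below are to be read beside these shares. Since the lists were chosen with earlier results of these data known, such counts describe the lists and are not independent support.

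With single libraries left out, which also leaves fewer samples, the count of called genes changed strongly. It was 1 without PARPi+ICB replicate 3, 3 without ICB replicate 2, 9 without ICB replicate 1 and 29 without PARPi+ICB replicate 1, and rose to 267 without PARPi+ICB replicate 2 and 492 without ICB replicate 3. Fitted on the 6 libraries alone, which leaves 4 residual degrees of freedom in place of 14, no gene passed, with a smallest adjusted p of 0.135 and 2604 genes at an unadjusted p under 0.05. DESeq2 called 824 genes (2.91% of those tested higher and 1.63% lower) and limma voom with sample weights 1102 (3.38% higher and 2.70% lower), and 154 and 156 of the 158 were among them. On the deposited log2 RPKM limma called 68, with 0.236% of 14381 genes in each direction, 56 of them among the 158. The 158 genes kept their direction in each setting that gave them a value. Of the 54 named genes that passed, 48 lost the call without ICB replicate 1, 53 without ICB replicate 2, 53 without PARPi+ICB replicate 3 and 37 without PARPi+ICB replicate 1. For 71 of the 96 higher genes the highest value was that of PARPi+ICB replicate 3.

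**Figure D1:**
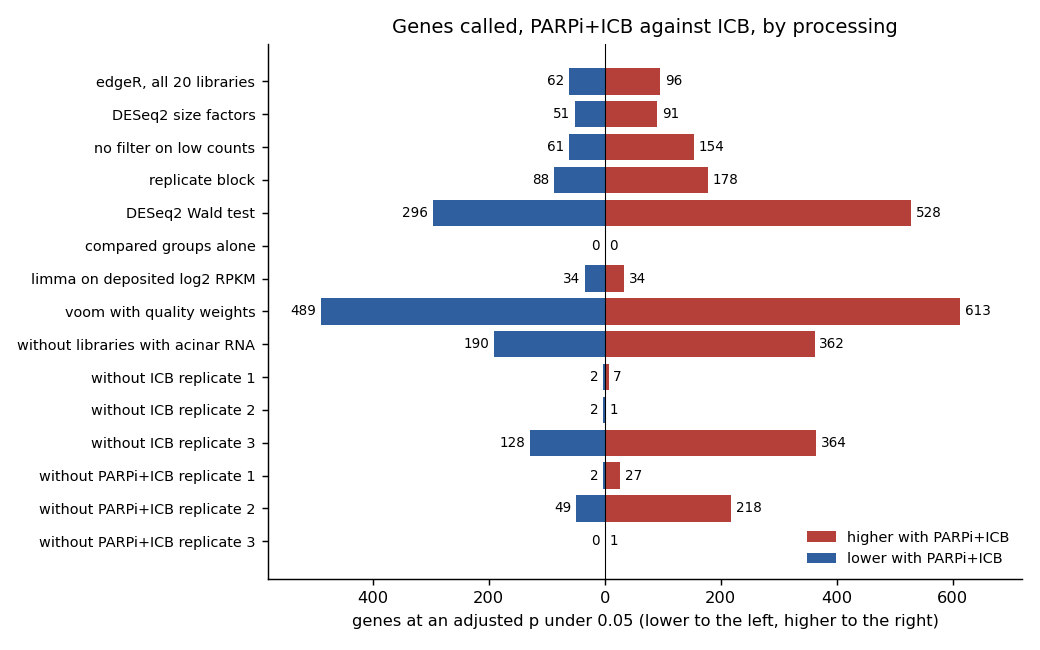
Number of genes called higher (bars to one side) and lower (to the other) in PARPi+ICB against ICB at an adjusted p under 0.05, for each way of processing the counts and with each of the 6 libraries left out. The total is 158 in the reported fit and runs from 0 with the compared groups alone to 1102 with voom and quality weights.

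The gene with the smallest p was Sez6l (ENSMUSG00000058153, chr5:112419151-112577185, minus strand, GRCm38), which encodes a transmembrane protein of the seizure-related gene family. It stood at 5.38, 5.02 and 7.78 CPM in the ICB libraries and at 17.9, 18.0 and 16.8 CPM with olaparib added. The groups were well separated and the 3 PARPi+ICB values were nearly equal. Sez6l rose 2.90-fold, a log2 change of 1.53 ± 0.18 (SE, adjusted p = 0.00147), and it was called with each of the 6 libraries left out in turn, with a highest adjusted p of 0.0170. It was also higher with olaparib alone, at 12.6, 10.2 and 9.38 CPM against 6.67, 7.72 and 7.64 CPM in controls, although that difference missed the threshold (log2 change 0.55 ± 0.17, adjusted p = 0.214).

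Ccdc80, a secreted matrix-binding protein, was at 294, 259 and 314 CPM in ICB and at 421, 440.9 and 459.6 CPM in PARPi+ICB, a rise of 1.53-fold (log2 0.61 ± 0.09, adjusted p = 0.0117). Fndc1, which carries fibronectin type III domains, rose from 38.8, 42.4 and 83.8 CPM to 112, 132 and 131 CPM (log2 1.18 ± 0.21, adjusted p = 0.0241). Both genes separated the groups, and for Fndc1 the highest ICB value was again that of replicate 3. Nkain4, a partner of the sodium pump, rose by 0.88 ± 0.13 on the log2 scale from a mean of 5.18 CPM (adjusted p = 0.0117). Aplp1, a relative of the amyloid precursor protein, was at 4.15, 3.49 and 6.12 CPM against 11.0, 10.7 and 12.1 CPM (log2 1.30 ± 0.22, adjusted p = 0.0227). Nrxn2, a neurexin known from synapses, rose by 2.13 ± 0.45 from a mean of 0.947 CPM (adjusted p = 0.0364).

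Adamts19, a secreted metalloprotease, had one of the largest fitted changes. It was at 0, 0.0664 and 0.338 CPM in ICB and at 2.18, 2.13 and 1.46 CPM with olaparib added (log2 3.78 ± 0.67, adjusted p = 0.0241). Its levels in ICB were close to 0, so the fitted fold is imprecise, but the groups did not overlap. Ugt1a7c rose by 0.90 ± 0.13 (adjusted p = 0.0117). It belongs to the Ugt1a cluster of glucuronosyltransferases, whose transcripts share exons, so reads cannot be assigned to it with certainty. Gata5, a transcription factor of the GATA family, was at 1.16, 0.631 and 2.68 CPM in ICB and 5.06, 4.70 and 5.26 CPM in PARPi+ICB (log2 1.74 ± 0.33, adjusted p = 0.0283). Bnc1, a zinc finger protein of keratinocytes and germ cells, and Tpbgl rose by 1.81 ± 0.39 and 1.91 ± 0.37 (adjusted p = 0.0428 and 0.0289). Sntg1, a syntrophin, and Eepd1, an endonuclease family protein linked to replication fork repair, rose by 1.57 ± 0.27 and 1.19 ± 0.21 (adjusted p = 0.0213 and 0.0241).

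Among genes of immune cells outside the marker lists, Klf2 and Siglecg were near the top. Klf2, the transcription factor that keeps lymphocytes quiescent and recirculating and is also active in endothelium, was at 5.19, 4.62 and 4.55 CPM in ICB and at 9.04, 11.2 and 16.0 CPM in PARPi+ICB. That is a rise of 2.52-fold (log2 1.33 ± 0.20, adjusted p = 0.0128), with the highest value in replicate 3. Siglecg, an inhibitory receptor of B cells, rose from 1.82, 1.89 and 2.09 CPM to 5.32, 3.71 and 9.16 CPM (log2 1.64 ± 0.27, adjusted p = 0.0167). Tlr5, the flagellin receptor, went from a mean of 1.39 to 3.26 CPM (log2 1.22 ± 0.22, adjusted p = 0.0241) with little spread in either group.

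Lower genes were led by Smpdl3b (ENSMUSG00000028885, chr4:132732966-132757252, minus strand, GRCm38), a membrane-bound phosphodiesterase that acts on lipids. It stood at 71.5, 72.3 and 69.2 CPM in ICB and at 52.95, 50.2 and 44.0 CPM in PARPi+ICB. The groups did not overlap, and the level fell by 0.53 on the log2 scale (SE 0.08, adjusted p = 0.0145). Ky, a muscle protease-like gene, was at 16.8, 18.6 and 15.7 CPM against 10.8, 12.2 and 10.6 CPM (log2 -0.60 ± 0.10, adjusted p = 0.0161). Tspan15, a tetraspanin that partners ADAM10, was at 184, 198 and 170.2 CPM against 123, 135 and 119 CPM (log2 -0.55, adjusted p = 0.0205). Mme, the membrane peptidase neprilysin, was at 40.3, 59.1 and 57.0 CPM in ICB and within 27.2 to 30.2 CPM in PARPi+ICB (log2 -0.88 ± 0.15, adjusted p = 0.0227).

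Among the called genes the largest decrease was in Rgs22, a regulator of G protein signalling. It was at 4.43, 5.71 and 4.25 CPM in ICB and at 0.989, 1.27 and 0.860 CPM with olaparib added (log2 -2.20 ± 0.41, adjusted p = 0.0280). Control libraries had 2.83, 0.840 and 1.39 CPM, so the ICB libraries lay above the controls and the PARPi+ICB libraries within the range of the PARPi and control libraries. Kcnq3, a voltage-gated potassium channel, showed a like order, with 3.96, 3.89 and 4.25 CPM in ICB against 1.63, 1.11 and 1.29 CPM (log2 -1.58 ± 0.30, adjusted p = 0.0280). Gucy2g, a receptor guanylate cyclase, fell by 1.05 (SE 0.23, adjusted p = 0.0429) on the log2 scale. Nrip2 and Tmie fell by 0.97 and 1.07. Smaller decreases were measured for abundant genes with little spread: Serinc5, a phospholipid scramblase family member, was at 567, 636 and 633 CPM against 454, 465 and 449 CPM, and Rin2, a RAB5 exchange factor, went from a mean of 416 to 323 CPM (log2 -0.37, adjusted p = 0.0241). Lama3, a laminin chain of epithelial basement membranes, Xylt1, which starts proteoglycan sugar chains, and Tmem184a fell by 0.43, 0.45 and 0.51. Tcea3, an elongation factor, fell by 0.60, and Ndrg3 and Maco1 by 0.27 and 0.25.

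**Figure D2:**
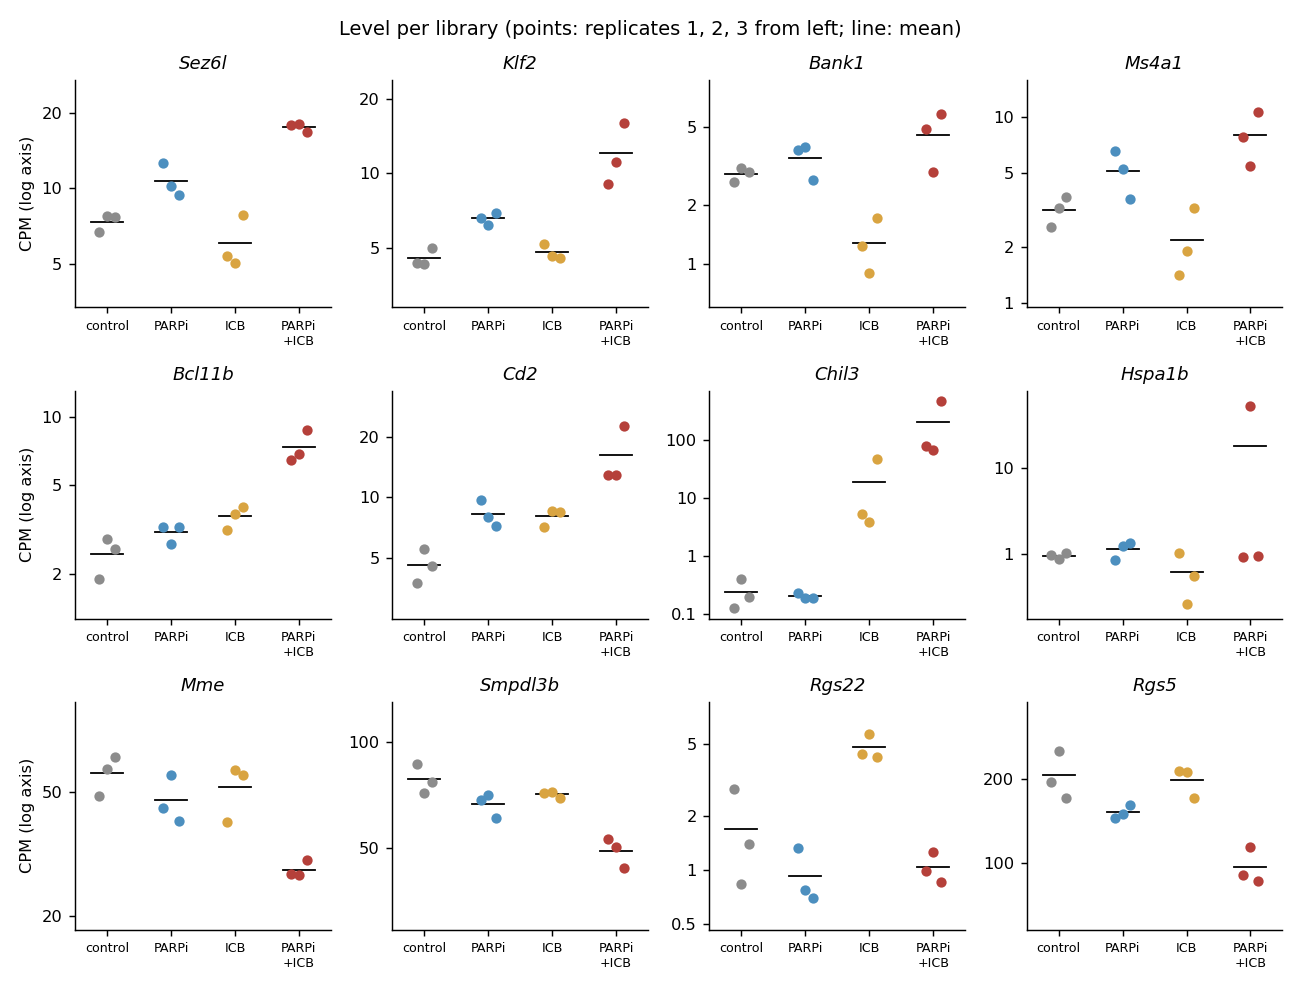
Level in CPM (log axis) of 12 genes in the libraries of 4 groups, with points for replicates 1, 2 and 3 from left to right and a line at the group mean. Sez6l, Klf2, Bank1, Ms4a1, Bcl11b and Cd2 lie higher in PARPi+ICB than in ICB, Mme, Smpdl3b, Rgs22 and Rgs5 lie lower, and Hspa1b is high in PARPi+ICB replicate 2 alone.

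Of 13 B cell markers tested, 5 rose when olaparib was added, where 0.529% of all genes tested did, and none fell. A further 4 were higher at an unadjusted p under 0.05 only, 9 in all, where 8.89% of all genes were. All 13 had a positive log2 change, with a median of 0.89, and over all genes tested the median was -0.01 and 48.8% were positive. Bank1, an adaptor of B cell receptor signalling, stood at 1.23, 0.897 and 1.72 CPM in ICB and at 4.89, 2.93 and 5.82 CPM in PARPi+ICB. Ms4a1, which encodes CD20, stood at 1.41, 1.89 and 3.26 CPM against 7.88, 5.50 and 10.6 CPM. Neither gene overlapped between groups, and in both the order within PARPi+ICB was the same, with replicate 3 highest and replicate 2 lowest.

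The changes were 3.53-fold for Bank1 (log2 1.82 ± 0.29, adjusted p = 0.0162) and 3.65-fold for Ms4a1 (1.87 ± 0.38, adjusted p = 0.0359). Pax5, the transcription factor that fixes B cell identity, rose by 1.79 ± 0.36 (adjusted p = 0.0321) and the tetraspanin Cd37 by 0.88 ± 0.17 (adjusted p = 0.0280). The mean log2 CPM of the list was 1.70 to 1.96 in ICB and 2.43 to 3.22 in PARPi+ICB. Controls lay between them at 2.01 to 2.20, and PARPi at 2.40 to 2.69. The order of the ICB and control groups depended on the measure, since the summed level of the list was 83.3 to 98.9 CPM in ICB and 64.8 to 73.3 CPM in controls, against 111 to 213 CPM in PARPi+ICB. No B cell marker was called without ICB replicate 1, without ICB replicate 2 or without PARPi+ICB replicate 3, 1 without PARPi+ICB replicate 1, and 5 or 6 without either of the others. DESeq2 called 8 and voom 5.

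Of 17 T cell markers 2 rose, Bcl11b and Cd2, where 0.529% of all genes did. All 17 had a positive log2 change (48.8% of all genes) with a median of 0.70, and 14 were higher at an unadjusted p under 0.05 (8.89% of all genes). Bcl11b, the transcription factor of T lineage commitment, stood at 3.14, 3.69 and 3.97 CPM in ICB and at 6.46, 6.83 and 8.73 CPM in PARPi+ICB (log2 1.03 ± 0.19, adjusted p = 0.0249). Cd2, an adhesion receptor of T and NK cells, went from 7.14, 8.60 and 8.49 CPM to 12.9, 13.0 and 22.8 CPM (log2 1.01 ± 0.23, adjusted p = 0.0493). The groups did not overlap in either gene. Cd3e, a chain of the T cell receptor complex, was at 8.39, 11.3 and 10.4 CPM against 14.4, 9.33 and 17.9 CPM, with overlap and an adjusted p of 0.362. DESeq2 called 10 of the 17 and voom 6, and no T cell marker was called without ICB replicate 1, without ICB replicate 2 or without PARPi+ICB replicate 3.

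Genes of killing, natural killer cells and checkpoint receptors did not pass the test. Of 14 cytotoxic lymphocyte genes, 0 were called by edgeR and 2 each by DESeq2 and voom. Still, 13 had a positive change (median 0.62), and 6 were higher at an unadjusted p under 0.05 (8.89% of all genes). Eomes, a transcription factor of effector and memory CD8 and NK cells, was closest, at 1.13, 0.930 and 1.11 CPM against 2.12, 1.70 and 2.55 CPM (log2 1.00 ± 0.26, adjusted p = 0.0719). Ifng, the cytokine interferon-gamma, had a log2 change of 0.03 ± 0.50 at about 1 CPM in both groups. All 10 natural killer cell genes were positive, with a median of 0.85, but 0 were called by edgeR, DESeq2 or voom and 2 had an unadjusted p under 0.05. Klrb1c, which encodes the receptor NK1.1, was at 0.283, 0.299 and 0.369 CPM against 0.756, 0.402 and 0.728 CPM (log2 0.98 ± 0.38, adjusted p = 0.201), without overlap but short of the threshold.

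Of 7 regulatory T cell genes, 0 were called and 4 were higher at an unadjusted p under 0.05 (8.89% of all genes), with 1 called by DESeq2 and 1 by voom. Foxp3, which defines the lineage, stood at 4.84, 5.75 and 6.34 CPM against 9.54, 8.68 and 11.9 CPM without overlap (log2 0.83 ± 0.22, adjusted p = 0.0760). For the targets of the antibodies, Ctla4 had a log2 change of 0.71 ± 0.32 (adjusted p = 0.274) and Cd274, which encodes PD-L1, of 0.11 ± 0.19 (adjusted p = 0.836). Pdcd1, the receptor of PD-L1, changed by 0.68 ± 0.25 (adjusted p = 0.180). Of the 12 checkpoint and exhaustion genes, 0 were called by edgeR, 1 each by DESeq2 and voom, and 6 were higher at an unadjusted p under 0.05 (8.89% of all genes).

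Plasma cell and immunoglobulin genes were positive without passing. All 12 plasma cell genes had a positive change with a median of 0.52, and 10 were higher at an unadjusted p under 0.05 (8.89% of all genes). Of these 12, 0 were called by edgeR and 2 each by DESeq2 and voom. Pou2af1, the co-activator of immunoglobulin transcription, was at 43.0, 49.6 and 51.8 CPM in ICB against 89.6, 65.2 and 109 CPM in PARPi+ICB (log2 0.87 ± 0.26, adjusted p = 0.101). Olaparib alone raised Pou2af1 by 1.66 ± 0.27 over controls (adjusted p = 0.0330), one of the 12 genes called there, and the median of the list there was 1.21. The ICB libraries already stood at 5.20 to 5.30 mean log2 CPM for this list, against 4.06 to 4.41 in controls. Among 12 immunoglobulin constant region genes 0 were called by edgeR, 2 by DESeq2 and 1 by voom. Ighm, the heavy chain of IgM, was at 5405, 2921 and 8679 CPM against 9200.4, 13202 and 19234 CPM (log2 1.29 ± 0.40, adjusted p = 0.115). Ighd, the heavy chain of IgD on resting B cells, was at 1.10, 1.43 and 1.17 CPM against 4.36, 5.47 and 7.28 CPM without overlap (log2 2.21 ± 0.69, adjusted p = 0.118).

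**Figure D3:**
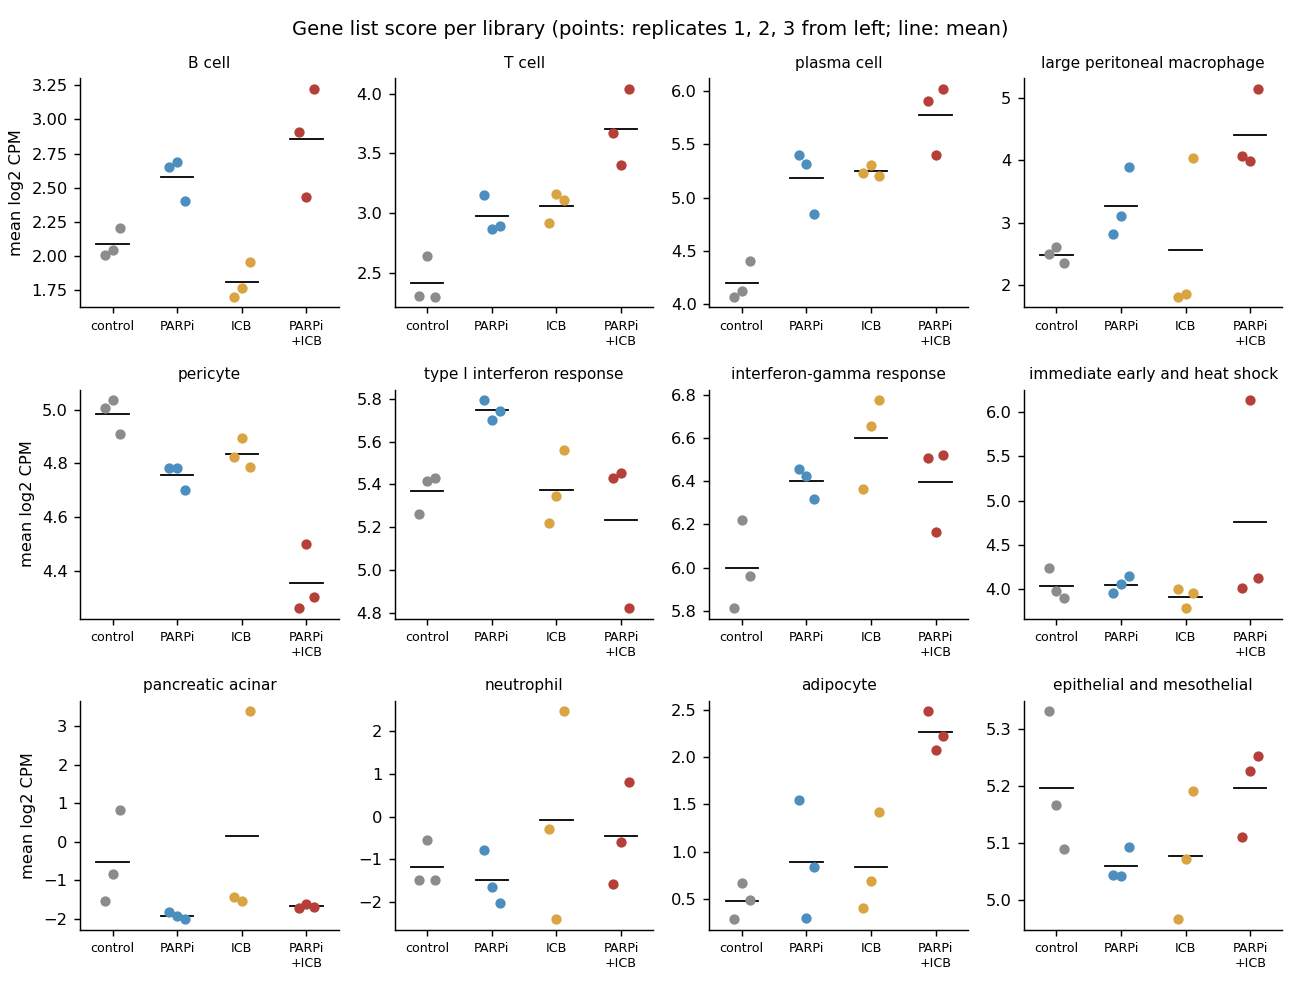
Mean log2 CPM of the genes of 12 lists in each library of the control, PARPi, ICB and PARPi+ICB groups, with one point per library. B cell, T cell and adipocyte scores of all PARPi+ICB libraries lie above all ICB libraries and pericyte scores below them, the acinar score is high in ICB replicate 3, and the heat shock score is high in PARPi+ICB replicate 2.

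Macrophage genes differed by large factors and unevenly between animals. Of 14 genes of alternative macrophage activation 1 was called higher, Chil3, where 0.529% of all genes were. At an unadjusted p under 0.05, 10 were higher (8.89% of all genes). The median log2 change was 1.20, or 0.51 without PARPi+ICB replicate 3. Chil3, the chitinase-like protein Ym1 secreted by alternatively activated macrophages, stood at 5.34, 3.89 and 47.1 CPM in ICB and at 78.5, 69.0 and 477 CPM in PARPi+ICB. It rose 11.1-fold (log2 3.47 ± 0.80, adjusted p = 0.0493). In both groups replicate 3 was highest by far, and in the controls and PARPi libraries the level was at most 0.403 CPM. Without PARPi+ICB replicate 3 the change was 1.98 (adjusted p = 0.288), and without ICB replicate 3 it was 5.50 (adjusted p = 0.00176). It also missed the threshold without ICB replicate 1, without ICB replicate 2 or without PARPi+ICB replicate 1. Chil4, a close paralog that may share reads with it, had a log2 change of 4.07 ± 1.12 (adjusted p = 0.111).

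Retnla, the resistin-like molecule of the same macrophages, followed the same order of libraries. It stood at 1.98, 1.86 and 17.6 CPM against 38.6, 31.5 and 190.4 CPM and just missed the threshold (log2 3.60 ± 0.85, adjusted p = 0.0527). Clec10a, a galactose lectin, was at 3.36, 3.32 and 3.05 CPM against 6.19, 6.12 and 10.6 CPM (log2 1.24 ± 0.31, adjusted p = 0.0654), here with no high value in ICB replicate 3. Arg1, the arginase of alternatively activated and suppressive macrophages, overlapped between groups at 25.3, 24.0 and 78.7 CPM against 44.3, 87.0 and 229.9 CPM (adjusted p = 0.246). DESeq2 called 5 of the 14 and voom 6.

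Large peritoneal macrophages, the resident phagocytes of the cavity, had the largest positive median of the leukocyte lists, 1.86 over 12 genes, which was 3.52 without ICB replicate 3 and 1.12 without PARPi+ICB replicate 3. None was called by edgeR, 2 by DESeq2 and 8 by voom, which called 2.91% and 3.38% of all genes higher. At an unadjusted p under 0.05 in edgeR, 8 were higher (8.89% of all genes). Timd4, the phosphatidylserine receptor of resident macrophages, was at 0.220, 0.266 and 5.51 CPM in ICB and 6.14, 4.39 and 11.7 CPM in PARPi+ICB. Prg4, the gene of lubricin, was at 3.68, 5.31 and 78.4 CPM against 92.0, 70.9 and 253 CPM. In both genes ICB replicate 3, the library with acinar RNA, reached the level of PARPi+ICB libraries. The mean log2 CPM of the list was 1.80, 1.85 and 4.04 in ICB and 4.08, 4.00 and 5.15 in PARPi+ICB. Gata6, a transcription factor of these macrophages, stood at 99.7 to 133 CPM in ICB and 117 to 129 CPM in PARPi+ICB (log2 0.04 ± 0.09, adjusted p = 0.873). Its level was far above that of Timd4 in the same libraries, and which cells its RNA came from was not tested. Saa3, an acute phase protein of macrophages, separated the groups at 6.79, 8.77 and 37.0 CPM against 56.4, 59.1 and 147 CPM (log2 2.32 ± 0.65, adjusted p = 0.0854).

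General tumour macrophage genes differed less. Of 15, 0 were called by edgeR and 2 each by DESeq2 and voom, and 9 were higher at an unadjusted p under 0.05 (8.89% of all genes). The median was 0.30, or 0.09 without PARPi+ICB replicate 3. Mrc1, the mannose receptor, had a log2 change of 0.74 ± 0.20 (adjusted p = 0.0760) and Csf1r, the growth factor receptor of macrophages, of 0.37 ± 0.14 (adjusted p = 0.191). Of the 11 dendritic cell genes tested 0 were called by edgeR, DESeq2 or voom and 1 had an unadjusted p under 0.05, with a median of 0.21. Neutrophil genes had a median of -2.06 over 11 genes and 0 were called, with 1 each by DESeq2 and voom, and 4 were lower and 1 higher at an unadjusted p under 0.05. S100a8, an abundant neutrophil protein, was at 1.29, 0.0996 and 10.3 CPM in ICB against 0.320, 0.741 and 1.62 CPM. Without ICB replicate 3 the median of the list was 0.48, with 7 of 11 genes positive and none lower at an unadjusted p under 0.05.

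One mast cell gene rose. Hdc, the enzyme that makes histamine, stood at 20.6, 21.7 and 17.8 CPM in ICB and at 32.4, 33.5 and 33.0 CPM in PARPi+ICB (log2 0.72 ± 0.12, adjusted p = 0.0179). The PARPi+ICB values were tight and lay above all ICB values. Cpa3, the mast cell carboxypeptidase, was at 5.72, 6.81 and 11.5 CPM against 13.9, 16.7 and 12.3 CPM (adjusted p = 0.185), and Kit, the stem cell factor receptor, had a log2 change of -0.18 ± 0.16 (adjusted p = 0.613). Of 8 mast cell genes 1 was thus called higher, where 0.529% of all genes were, and 3 were higher at an unadjusted p under 0.05 (8.89% of all genes). Among 12 chemokine and lymphoid tissue genes, Ltb, which encodes lymphotoxin beta and guides lymphoid tissue formation, rose from 5.60, 6.68 and 6.95 CPM to 11.3, 8.68 and 13.9 CPM (log2 0.81 ± 0.18, adjusted p = 0.0429). Cxcl13, the chemokine that draws B cells into follicles, and its receptor Cxcr5 had log2 changes of 1.65 ± 0.56 (adjusted p = 0.144) and 1.36 ± 0.33 (adjusted p = 0.0544).

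Interferon genes did not share the direction of the lymphocyte genes. Of 23 type I interferon response genes 0 were called by edgeR, DESeq2 or voom, 2 were lower at an unadjusted p under 0.05, 6 had a positive change, and the median was -0.15. Of 16 interferon-gamma response genes 0 were called by edgeR, DESeq2 or voom, 0 had an unadjusted p under 0.05, 1 was positive, and the median was -0.22. The sign of the type I median rested on PARPi+ICB replicate 3. Without it the median was 0.04 and 13 of 23 genes were positive, while that of the interferon-gamma list was -0.25 with 0 of 16 positive.

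Without checkpoint blockade the interferon genes were higher with olaparib. In PARPi against control all 23 and all 16 had a positive log2 change, with medians of 0.37 and 0.39, where 47.2% of all genes were positive. There 10 and 7 had an unadjusted p under 0.05, against 6.92% of all genes higher and 4.46% lower, and 0 were called by edgeR. Other lists moved in the same comparison. The 3 genes tested of a list of RNA tied to library quality (Rn7sk, Lars2 and Mir6236) had a median of -0.68, 2 of them lower at an unadjusted p under 0.05, with summed levels of 150.4 to 154 CPM in controls and 67.1 to 127 CPM in PARPi. The 8 erythroid genes had a median of -1.03, 2 of them lower at an unadjusted p under 0.05, with summed levels of 44.9 to 137 CPM against 18.9 to 50.8 CPM. Their part in the interferon values was not tested.

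The difference between the 2 olaparib effects, the interaction, was tested gene by gene. It was negative for 23 of 23 type I genes, with a median of -0.46 and 12 at an unadjusted p under 0.05, and for 16 of 16 interferon-gamma genes, with a median of -0.54 and 8 at an unadjusted p under 0.05. Without PARPi+ICB replicate 3 it was negative for 20 of 23 type I genes, with a median of -0.33 and 7 at an unadjusted p under 0.05, and for 16 of 16 interferon-gamma genes, with a median of -0.63. The library quality RNA list had an interaction median of 0.63, with 2 of 3 genes positive at an unadjusted p under 0.05. Over all genes tested 50.1% had a positive interaction, 2.54% a positive and 2.68% a negative one at an unadjusted p under 0.05. No interferon gene passed adjustment in edgeR. Ifit2, an interferon-induced RNA-binding antiviral protein, passed in DESeq2. It stood at 46.1, 57.2 and 47.7 CPM in controls and 84.4, 84.7 and 82.5 CPM in PARPi, and at 63.0, 79.7 and 93.6 CPM in ICB against 70.3, 71.7 and 51.3 CPM in PARPi+ICB. All PARPi libraries lay above all controls, and with ICB the groups overlapped. The interaction for Ifit2 was -1.03 ± 0.23, with an adjusted p of 0.869 in edgeR and 0.0132 in DESeq2.

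The lowest type I level of the PARPi+ICB group was that of replicate 3, with a mean log2 CPM of 4.82 over the list, where replicates 1 and 2 had 5.43 and 5.46 and the ICB libraries 5.22, 5.34 and 5.56. Over the interferon-gamma list the same replicate was the highest of its group at 6.52, with 6.51 in replicate 1, 6.16 in replicate 2 and 6.36, 6.66 and 6.78 in ICB. Controls stood at 5.81 to 6.22 for this list and PARPi at 6.32 to 6.45, so the ICB libraries already lay above the controls. For the type I list controls stood at 5.26 to 5.43, overlapping ICB, and PARPi at 5.70 to 5.79. PARPi+ICB replicate 3 also had the highest B and T cell scores. For Ifit1, a cap-binding antiviral protein, ICB stood at 38.8, 43.7 and 51.7 CPM and PARPi+ICB at 43.0, 48.4 and 24.1 CPM. Isg15, the ubiquitin-like modifier, was at 26.5, 26.1 and 32.1 CPM against 28.6, 26.04 and 16.1 CPM. Irf7, the factor that amplifies interferon production, had a log2 change of -0.01 ± 0.15. Genes of DNA sensing were also without a call, with 0 of 9 by edgeR, 1 by DESeq2 and 0 by voom, and 2 at an unadjusted p under 0.05, and a median of 0.01. Trex1 and the Ccl19 and Ccl21a genes were at 0 in all 6 libraries.

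Many interferon response genes hold a known sequence in their promoters, so a high share of it in these lists is no result of these libraries. That sequence is the interferon-stimulated response element. In the RefSeq promoter table (GRCm38.p6, 250 bases before to 50 after the start of a gene), its core, GAAA followed after any 2 bases by GAAA, searched on both strands, was found in 10 of the 16 type I genes that had an entry (62.5%) and in 8 of 10 interferon-gamma genes (80.0%), against 3.99% of 27025 promoters. It was in 2 of 69 matched genes called higher (2.90%) and 3 of 44 called lower (6.82%). Below are the 3 list members with a match that had the smallest interaction p, shown as examples of where the core lies. Capitals mark the core, which reads TTTC, any 2 bases and TTTC where it lies on the other strand. Stat2, a transcription factor of interferon signalling, lies at chr10:128270248-128270547 (plus strand), Ifih1, the RNA sensor MDA5, at chr2:62646206-62646505 (minus strand), and Ifit1 at chr19:34640639-34640938 (plus strand), each printed 5′ to 3′ on the strand of its gene.
Stat2: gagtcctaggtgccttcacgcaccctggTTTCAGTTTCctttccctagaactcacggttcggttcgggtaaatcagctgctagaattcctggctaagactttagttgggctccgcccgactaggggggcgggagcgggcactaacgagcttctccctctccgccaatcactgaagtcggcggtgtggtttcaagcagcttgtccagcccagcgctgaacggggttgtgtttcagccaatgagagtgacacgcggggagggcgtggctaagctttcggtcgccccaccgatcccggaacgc
Ifih1: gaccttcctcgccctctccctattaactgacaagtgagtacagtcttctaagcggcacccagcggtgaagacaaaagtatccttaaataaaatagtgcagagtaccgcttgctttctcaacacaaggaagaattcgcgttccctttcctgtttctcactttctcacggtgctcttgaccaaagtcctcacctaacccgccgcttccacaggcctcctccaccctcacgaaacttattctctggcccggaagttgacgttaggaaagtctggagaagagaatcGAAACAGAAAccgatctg
Ifit1: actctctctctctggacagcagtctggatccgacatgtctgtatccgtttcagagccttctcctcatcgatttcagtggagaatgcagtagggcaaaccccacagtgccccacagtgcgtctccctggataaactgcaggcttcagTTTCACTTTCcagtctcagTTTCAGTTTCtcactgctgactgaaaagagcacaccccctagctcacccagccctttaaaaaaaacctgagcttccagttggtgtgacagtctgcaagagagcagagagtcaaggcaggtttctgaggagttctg

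Stat2, with 1 match, had an interaction of -0.46 on the log2 scale and stood at 145, 159 and 161 CPM in ICB and 147, 143 and 129.6 CPM in PARPi+ICB. Ifih1, with 1 match just after the start site, had an interaction of -0.39 and Ifit1, with 2 matches, of -0.82. All 3 had an adjusted p of 0.958 in edgeR. The promoter of Ifit2 in the table held no match in this window. A match describes letters and does not show binding.

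Pericyte genes leaned lower. Of 11 pericyte and vascular mural cell genes 1 was called lower, Rgs5, where 0.342% of all genes were. At an unadjusted p under 0.05, 8 were lower (7.49% of all genes), and for 7 all PARPi+ICB libraries lay below all ICB libraries (10.8% of all genes). The median log2 change was -0.51. Rgs5 (ENSMUSG00000026678, chr1:169655501-169695813, plus strand, GRCm38), a G protein regulator that marks pericytes of tumour vessels, stood at 212, 211 and 170.4 CPM in ICB and at 90.3, 113 and 86.2 CPM in PARPi+ICB. It fell by 1.03 on the log2 scale (SE 0.23, adjusted p = 0.0458), to less than the level in controls, which was 171 to 251 CPM. It lost the call without ICB replicate 1 or 2 or without PARPi+ICB replicate 1 or 3, with adjusted p values up to 0.207, and its log2 change ran from -1.15 to -0.95 over the 6 fits. DESeq2 called 4 of the 11 and voom 5.

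Other pericyte genes pointed the same way without passing. Abcc9, a potassium channel subunit of mural cells, was at 16.2, 19.8 and 17.0 CPM against 10.8, 11.2 and 8.996 CPM (log2 -0.77, adjusted p = 0.0541). Mcam, an adhesion molecule of mural and endothelial cells, was at 58.7, 56.5 and 54.2 CPM against 30.6, 42.2 and 32.9 CPM (log2 -0.68, adjusted p = 0.0760). Higd1b had a log2 change of -1.23 (adjusted p = 0.0796). Endothelial genes differed less, with a median of -0.19 over 14 genes, 2 of them positive. None was called by edgeR, 1 each by DESeq2 and voom, and 1 had an unadjusted p under 0.05, Pecam1, the endothelial adhesion molecule CD31, at 82.8, 78.5 and 79.6 CPM against 61.4, 67.0 and 62.7 CPM (log2 -0.33 ± 0.08, adjusted p = 0.0510). Vegfa, the main growth factor of vessels, was at 458, 532 and 491 CPM against 315, 526 and 336 CPM (adjusted p = 0.412).

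Fibroblast and matrix genes leaned upward with a median of 0.25 over 15 genes, 13 of them positive. None was called by edgeR, 4 by DESeq2 and 6 by voom, and 6 were higher at an unadjusted p under 0.05 (8.89% of all genes). Dcn, the proteoglycan decorin, was at 395, 287 and 459 CPM against 574, 536 and 677 CPM (log2 0.65, adjusted p = 0.0568). Adipocyte genes had a median of 1.63 over 9 genes with 0 called by edgeR, DESeq2 or voom, 4 higher and 1 lower at an unadjusted p under 0.05. Cfd, the adipocyte protease adipsin, was at 1.38, 2.89 and 4.34 CPM against 14.02, 8.28 and 13.2 CPM (log2 2.04 ± 0.73, adjusted p = 0.166). Their list mean was 0.40, 0.69 and 1.42 in ICB and 2.49, 2.07 and 2.22 in PARPi+ICB, with 6 of 9 genes separating the groups upward (10.1% of all genes). The summed level, most of it Lpl, the lipoprotein lipase that other cells also make, was 763 to 808 CPM in ICB and 695 to 735 CPM in PARPi+ICB. The part of fat tissue in other results was not tested.

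Next come genes of epithelium and mesothelium, which tumour cells and host mesothelium can both express, and genes of the drug's target pathway. Of 16 epithelial and mesothelial genes 1 was called higher, where 0.529% of all genes were, and 0 lower. Lrrn4, a surface protein of mesothelium, rose from 16.4, 21.5 and 24.4 CPM to 40.0, 32.7 and 45.3 CPM (log2 0.92, adjusted p = 0.0458). The list was split in direction, with 7 genes positive and a median of -0.08. At an unadjusted p under 0.05, 4 were higher and 2 lower (8.89% and 7.49% of all genes). The groups separated upward for 4 and downward for 3 (10.1% and 10.8% of all genes). DESeq2 called 3 of the 16 and voom 5. Msln, which encodes mesothelin, was at 309.5, 294 and 280.3 CPM against 232, 249 and 227 CPM (adjusted p = 0.0970). Wt1 was at 1056, 1061 and 965 CPM against 862, 929 and 882 CPM (adjusted p = 0.144). Both separated the groups and missed the threshold.

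Parp1 stood at 271, 284 and 265 CPM in ICB and at 248, 257 and 242 CPM in PARPi+ICB (log2 -0.13 ± 0.08, adjusted p = 0.403), and Parp2 had a log2 change of -0.01 (adjusted p = 0.963). Of the 12 PARP family genes 0 were called by edgeR, DESeq2 or voom, 1 was lower at an unadjusted p under 0.05 and the median was -0.07. Among 16 homologous recombination genes 0 were called by edgeR, DESeq2 or voom, 3 were higher at an unadjusted p under 0.05, and 13 were positive with a median of 0.13. Reads of Brca1 were counted in both groups, at 10.7, 13.3 and 17.4 CPM against 21.8, 17.4 and 13.2 CPM (adjusted p = 0.404), and Trp53 had a mean of 57.5 and 58.5 CPM. The host cells in these tumours are not said to carry the deletions, and the files do not tell their reads from those of the line.

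Of 13 genes activated by p53, 12 were positive with a median of 0.16, and 3 were higher at an unadjusted p under 0.05, with 0 called by edgeR and DESeq2 and 1 by voom. Cdkn1a, the cell cycle inhibitor p21, was at 22.8, 22.7 and 25.02 CPM against 28.0, 34.7 and 27.9 CPM without overlap (adjusted p = 0.226). Of 18 proliferation genes all were positive with a median of 0.34, and 10 were higher at an unadjusted p under 0.05 (8.89% of all genes). EdgeR called 1 higher, where 0.529% of all genes were, DESeq2 called 6 and voom 10. The mean log2 CPM of the list was 5.10 to 5.67 in ICB and 5.58 to 5.91 in PARPi+ICB. In controls it was 5.64 to 5.75 and in PARPi 5.92 to 6.03, so PARPi+ICB lay near the controls and ICB reached lower. Ccnb2, a mitotic cyclin, rose from 13.5, 14.1 and 18.6 CPM to 22.9, 22.4 and 23.9 CPM (log2 0.58 ± 0.13, adjusted p = 0.0458). Mki67, the proliferation marker Ki-67, overlapped at 175, 247 and 322 CPM against 397, 277 and 267 CPM (adjusted p = 0.359). Genes of the unfolded protein response had a median of 0.24, with 9 of 14 higher at an unadjusted p under 0.05 (8.89% of all genes). Of the 14, edgeR called 1 higher, where 0.529% of all genes were, DESeq2 called 4 and voom 5. The 1 called by edgeR was Herpud1, which helps degrade misfolded proteins of the endoplasmic reticulum. It rose from 84.8, 84.6 and 77.7 CPM to 122, 100.4 and 126 CPM (log2 0.49 ± 0.11, adjusted p = 0.0494).

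Heat shock genes were called on the strength of a single library. Hspa1a stood at 0.629, 0.531 and 0.492 CPM in ICB and at 0.785, 27.1 and 1.06 CPM in PARPi+ICB (log2 4.12 ± 0.94, adjusted p = 0.0487). Hspa1b, a nearly identical copy with which it can share reads, was at 1.04, 0.266 and 0.554 CPM against 0.931, 53.6 and 0.959 CPM (log2 4.89 ± 1.11, adjusted p = 0.0463). Only PARPi+ICB replicate 2 was high. Without that library the log2 changes were 0.75 and 0.61 (adjusted p = 0.362 and 0.490). Dnajb1, an HSP70 co-chaperone, and Fos, an immediate early transcription factor, had their highest values in the same library, at 176 and 43.6 CPM.

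The comparison without checkpoint blockade shares no library with the one above. Olaparib alone changed 12 genes, 0.0661% of those tested, 10 higher (0.0551%) and 2 lower (0.0110%). Of the 96 genes that rose when olaparib was added to ICB, 88 had a positive change in PARPi against control (91.7%), and of the 62 that fell, 59 had a negative change (95.2%), where the share of same signs was 64.6% over all genes tested. Among genes at an unadjusted p under 0.05 it was 83.1% for higher and 83.4% for lower ones. The changes of the 96 and 62 called genes were smaller in PARPi against control, with medians of 0.33 and -0.19, and 1 and 0 of them were called there. Bank1 was at 2.61, 3.09 and 2.94 CPM in controls and 3.80, 3.95 and 2.67 CPM in PARPi, and Smpdl3b at 86.4, 71.5 and 76.8 CPM against 68.5, 70.5 and 60.8 CPM. The Bank1 values overlap and those of Smpdl3b just separate. Across 18144 genes the log2 changes of the 2 comparisons had a Pearson correlation of 0.37, given as a description since genes are not independent.

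**Figure D4:**
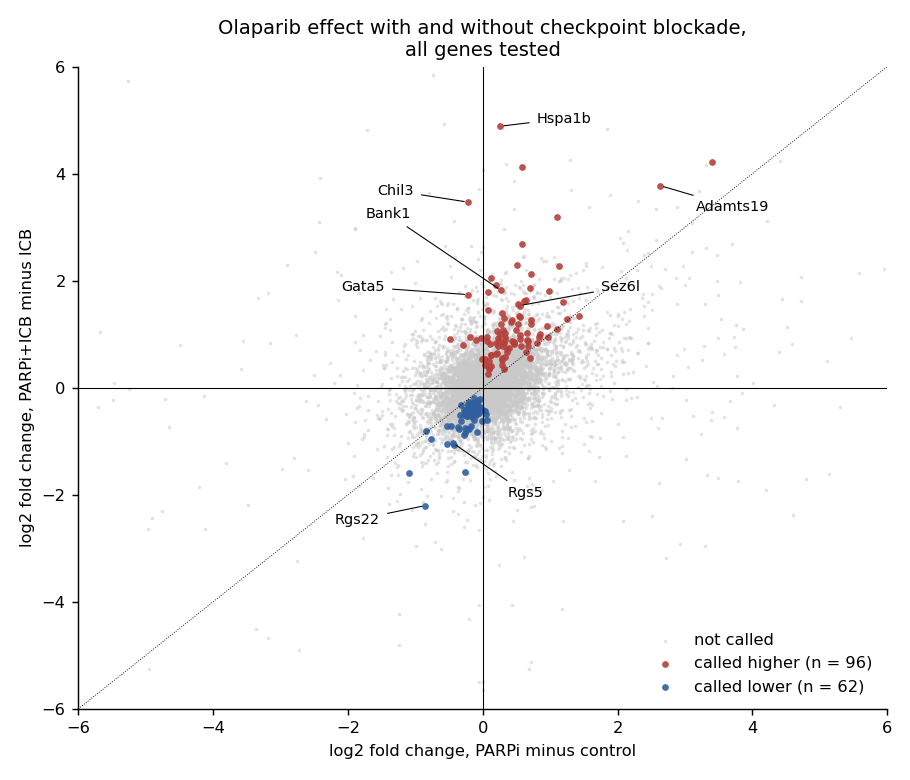
Log2 change of each gene tested with olaparib alone (PARPi minus control, x axis) and with olaparib added to checkpoint blockade (PARPi+ICB minus ICB, y axis), with called genes coloured, the dotted line marking equal changes, and 42 genes outside the axis limits of 6. Called genes lie mostly in the quadrants of the same sign, farther from 0 on the y axis than on the x axis.

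A larger change with ICB than without is not shown by these counts, and the interaction tests it. By edgeR 0 of 18144 genes passed, with 946 at an unadjusted p under 0.05 (5.21%), while DESeq2 called 11 and voom 2. Gata5 was the gene named most often, called by DESeq2 (adjusted p = 0.0139) and by voom, with an interaction of 1.96 ± 0.46. It was at 2.74, 3.09 and 2.84 CPM in controls and 2.56, 2.63 and 2.26 CPM in PARPi, so olaparib alone left it within a narrow range, and the ICB libraries were below the controls. Ndnf, a secreted neurotrophic factor, had an interaction of 1.10 ± 0.22 (DESeq2 adjusted p = 0.00932). It stood at 11.8, 14.1 and 13.3 CPM in controls, 8.61, 7.16 and 9.70 CPM in PARPi, 7.32, 5.41 and 8.62 CPM in ICB and 9.92, 8.93 and 10.9 CPM in PARPi+ICB, lower with olaparib in the first pair and higher in the second. Trf, which encodes transferrin, had the same order, with an interaction of 0.89 (DESeq2 adjusted p = 0.0132). Ky went the other way, with an interaction of -0.66 (DESeq2 adjusted p = 0.0139).

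**Figure D5:**
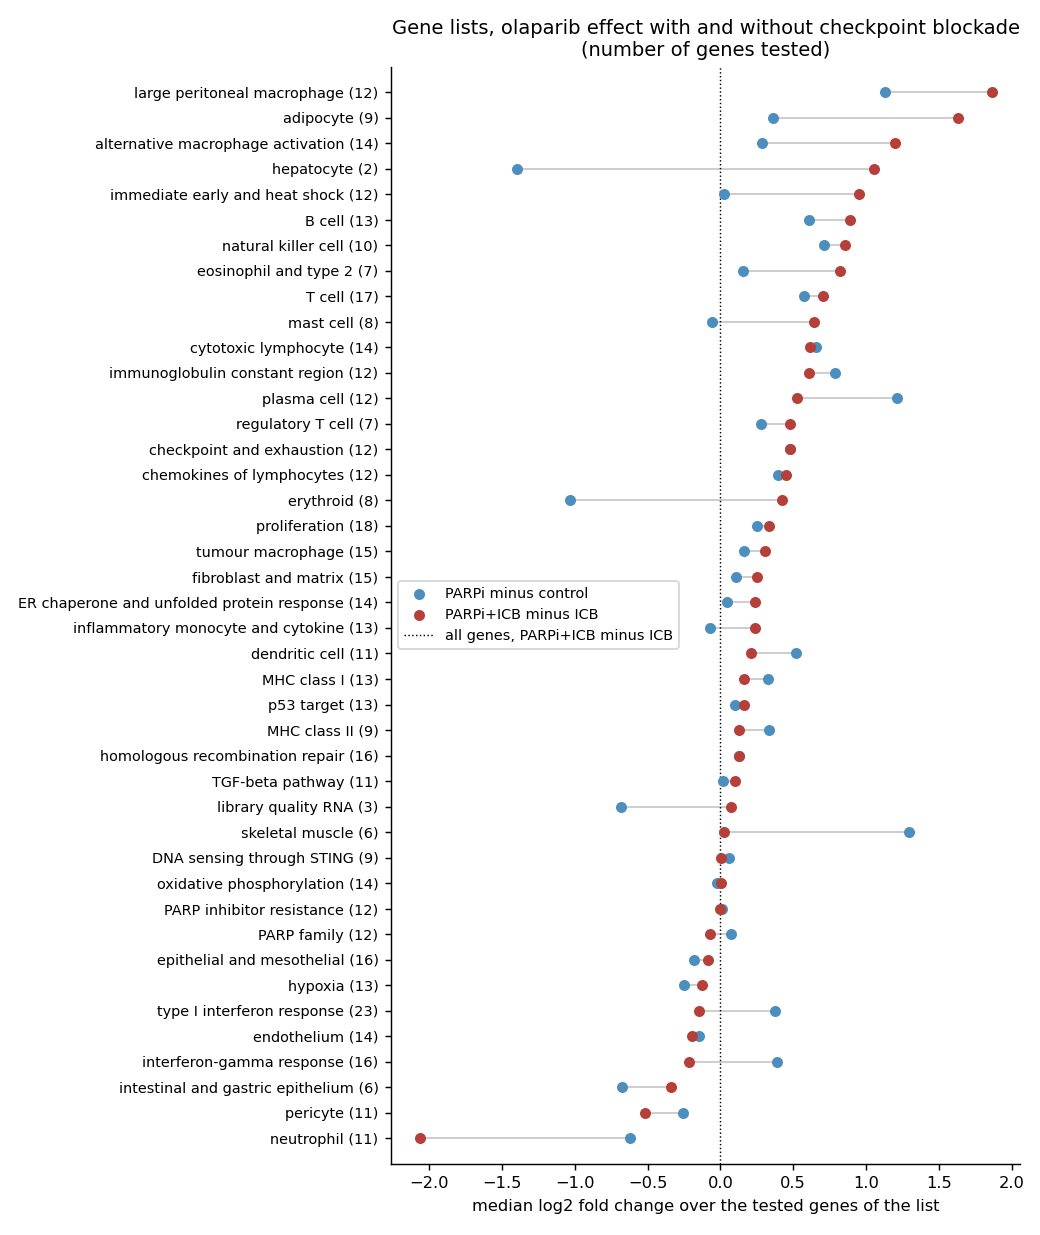
Median log2 change of each marker or pathway list with olaparib added to ICB and with olaparib alone, in log2 units, one row per list. The pancreatic acinar list is left out, with medians of -5.51 with olaparib added to ICB and -4.09 with olaparib alone. Lymphocyte and macrophage lists lie above 0 in both comparisons, both interferon lists lie above 0 with olaparib alone and below 0 with ICB (type I 0.04 without PARPi+ICB replicate 3), and the pericyte list lies below 0 in both.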

How the data were processed

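Total RNA of frozen tumour tissue was made into stranded libraries, with a depletion step that the labels' protocols describe as cytoplasmic. STAR, HTSeq and GRCm38 are named in the submitters' processing notes; versions, annotation release and strand setting are not given in the sources used here. The deposited table holds raw read counts per Ensembl gene, and a second one holds the authors' log2 RPKM values, which were proportional to the counts within 0.01 log2 for 100% of values checked. Of 55406 genes, 55227 matched GENCODE M21, and unmatched identifiers held at most 0.00196% of counts. The members and gene lists were chosen with earlier results of these data known.

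Counts of all 20 libraries (30.2 to 34.7 M in the 6 compared) were fitted in R 4.3.3 with edgeR 4.0.16, with 1 coefficient per group, TMM factors and filterByExpr (minimum count 10, minimum total 15), leaving 18144 genes and a common coefficient of variation of 0.208. Quasi-likelihood p-values were adjusted by Benjamini-Hochberg per contrast and called under 0.05. SE was taken from the F statistic as the absolute log2 change over its root, and CPM uses effective library sizes. List scores are mean log2 CPM with a prior count of 2. Named genes were up to 15 per direction with the smallest p and 8 with the largest change at a mean CPM of at least 1, up to 5 per list, the drug and antibody targets, and up to 8 per direction of the interaction. Retnla, Chil4 and Ifit2 were also added after their values were seen. Other named list members, among them Cd3e, Ifng, Gata6, Mki67 and Irf7, were not among the 5 smallest p of their list and fall outside this rule. Some genes that met the rule are counted in their lists but not reported here by name. Replicate numbers were not used to pair the libraries, since no label says what they mark. The fits were tested on simulated data. Alternatives used DESeq2 1.42.0 and limma 3.58.1.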

Additional observations from a re-analysis of the deposited data

How the results depend on the processing

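The 158 genes of PARPi+ICB against ICB became 142 with DESeq2 size factors, 215 with no filter, 266 with the replicate block, 824 with DESeq2, 0 with the compared groups alone, 68 with limma on the deposited log2 RPKM, 1102 with voom and quality weights, and 552 without the libraries with acinar RNA. Leaving out 1 library gave 1 to 492. The 12 genes of PARPi against control became 70 with no filter, 20 with the replicate block, 349 with DESeq2, 171 alone, 1 with limma on log2 RPKM, 175 with voom, 0 without libraries with acinar RNA, and 0 to 5 with 1 library left out. The interaction, 0 in edgeR, became 11 with DESeq2, 2 with voom, 1 without libraries with acinar RNA (Gata5), and 0 to 2 with 1 library left out. The cause was not tested, except that the compared groups alone and the fits without libraries use fewer samples. Of 54 named genes that passed, all 54 kept their direction in the leave-one-out fits, 53 lost the call without ICB replicate 2, 53 without PARPi+ICB replicate 3 and 54 with the compared groups alone. Deviations from the group mean correlated at -0.03, 0.07 and 0.12 between ICB and PARPi+ICB libraries with the same replicate number. These values cannot show whether such libraries shared a batch, and no label names one. The replicate block was therefore used as an alternative only.
At under 1 CPM in each library, Klrb1c (log2 0.98 ± 0.38) missed the threshold at this depth and spread, while Zbtb16, at 0.185 to 1.25 CPM, passed.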

Other observations

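The genes described here were called in the comparison and chosen after their values were seen. Il7r, the receptor of the T cell survival cytokine interleukin-7, rose from 6.92, 7.04 and 8.80 CPM in ICB to 11.1, 11.8 and 18.0 CPM in PARPi+ICB (edgeR adjusted p = 0.0429). Gimap3, a GTPase of lymphocyte survival, rose from 16.9, 21.02 and 21.8 CPM to 40.2, 34.3 and 47.3 CPM (edgeR adjusted p = 0.0364). Both separated the groups. Syk, a kinase of the B cell and Fc receptors, rose 1.82-fold (edgeR adjusted p = 0.0321) and Fgr, a Src family kinase of myeloid cells, 1.87-fold (edgeR adjusted p = 0.0458). Zbtb16, the transcription factor PLZF of innate-like lymphocytes, rose from 0.220, 0.266 and 0.185 CPM to 1.25, 0.958 and 1.12 CPM (edgeR adjusted p = 0.0321).

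C4b, a component of the classical complement pathway, stood at 60.8, 68.6 and 131 CPM in ICB and at 150.0, 152 and 320.1 CPM in PARPi+ICB (edgeR adjusted p = 0.0493), and Cfp, which stabilises the alternative complement pathway, at 17.7, 19.2 and 28.9 CPM against 35.3, 34.9 and 59.3 CPM (edgeR adjusted p = 0.0289). In both genes replicate 3 was the highest library of its group. Among lower genes, Aspn, a small matrix proteoglycan, went from a mean of 18.8 to 11.1 CPM (edgeR adjusted p = 0.0458), and Ptgds, a prostaglandin D synthase, from 84.9 to 48.7 CPM (edgeR adjusted p = 0.0458). Car12, a carbonic anhydrase, went from 127 to 82.2 CPM (edgeR adjusted p = 0.0494) and Tyro3, a receptor tyrosine kinase of the TAM family, from 235 to 169.8 CPM (edgeR adjusted p = 0.0454).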
